A study of Mus musculus with 18 samples.

Results

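The simple epithelial keratins are the genes Krt8, Krt18, Krt19 and Krt7, which were taken by name from a table of 55471 genes. The other 50 keratin genes of that table that carry a plain number are used below for comparison. Krt8 entered the choice because it had one of the largest increases that OSKM cells of both origins shared. Genes whose OSKM libraries all lay above the 2iL libraries were ranked by the smaller of 2 log2 differences in FPKM + 1, that of the iPSCs and that of the ESCs at day 38. Krt8 held rank 5 with 3.48, next to Arl4c with 3.59 at rank 4 inside the 5 named genes and Pxdn with 3.46 at rank 6 outside them. Krt18 stood at rank 29, Krt19 at rank 136 and Krt7 at rank 2691. All values of OSKM cells against 2iL cells for these 4 genes are therefore given as a description without a test, except for one test added later on the earlier days.

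Keratins are the intermediate filament proteins of epithelial cells, and each filament pairs a type II chain with a type I chain. Krt8 and Krt7 encode type II chains, and Krt18 and Krt19 encode type I chains. K8 and K18 are the first keratins made in the mouse embryo, where they mark the trophectoderm, and they remain the main keratins of single-layered epithelia such as liver and gut. K19 is a type I chain of ducts and gut, and K7 is a type II chain of glandular and ductal epithelia. An unpaired chain is usually degraded.

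Expression was measured by RNA-Seq in 18 mouse libraries, 2 for each of 9 conditions, to compare cells kept on the OSKM factors (Oct4, Sox2, Klf4 and Myc) with cells kept in 2iL. The ESCs came from a single Tet-On-OSKM/Oct4-GFP line, labelled as a cross of a (C57BL/6 x 129S4/SvJae)F1 parent with a (CBA/CaJ X C57BL/6J)F2 parent. That line carries M2rtTA in Rosa26, a single DOX-inducible OSKM cassette in the Col1a1 locus and GFP under the distal promoter of Oct4. OSKM-ESCs were moved from 2iL to N2B27 with DOX, and 2iL-ESCs stayed in N2B27 with the MEK inhibitor PD0325901, the GSK3 inhibitor CHIR99021 and LIF, and both were collected on days 18, 25 and 38. The iPSCs were made from Tet-On-OSKM MEF cells of the strain (C57BL/6 x 129S4/SvJae)F1, so strain and origin cannot be told apart. The OSKM-iPSC libraries were of clone 1 at passage 7 and clone 3 at passage 6, and the 2iL-iPSC libraries of clone 3 at passage 2 and clone 6 at passage 3, so that effects of passage cannot be told apart from those of medium in iPSCs. The labels name N2B27 with DOX as the daily medium of both kinds of clone, whereas the study's methods describe 2iL without DOX for the 2iL-iPSCs, which were grouped by their titles. MEF cells at passage 4, grown in DMEM with FBS, were the somatic cells, and mitomycin-C treated MEF cells also served as feeders. Nothing in the labels says that the 2 libraries of an ESC or MEF condition came from separate cultures, so p-values measure the spread between these libraries.

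Levels are FPKM, fragments per kilobase of transcript scaled to the mapped fragments of the library, a scale per length on which genes can be compared. The depth in reads is unknown, and the mean coverage of Krt8 per unit of FPKM lay between 5.01 and 6.07 in the 18 libraries. Krt8 itself was covered 151 to 1927 times per base in the 8 OSKM libraries, 12.6 to 88.0 times in the 8 2iL libraries and 14.8 to 19.5 times in MEF cells. Krt7 had the thinnest coverage, from 0 to 32.2 times per base, so that its values under an FPKM of 1 rest on few reads. All 10 pluripotency markers examined exceeded a mean FPKM of 1 in each ESC and iPSC condition, and only Sox2 did so in MEF cells (1.37). Their sum was lower in the OSKM libraries, at 1487 to 2139 FPKM in OSKM-ESCs against 3009 to 3395 in 2iL-ESCs and at 1211 and 1873 in OSKM-iPSCs against 2999 and 3468 in 2iL-iPSCs. At day 38, for example, Nanog was 53.8 against 208.4 in the ESCs and Zfp42 8.57 against 63.2. Of the 10 markers, only Lin28a (162.0 against 57.7) and Utf1 (148.9 against 130.6) had a higher mean in OSKM-ESCs on that day. The sums include Pou5f1 (Oct4) and Sox2, whose reads in cells with DOX may come in part from the OSKM cassette. These levels cannot tell such reads from those of the endogenous genes. The part of these marker differences in the keratin values was not tested. Bulk values cannot tell more cells with a keratin from more keratin RNA per cell.

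Krt8, Krt18 and Krt7 lie on chromosome 15 and Krt19 on chromosome 11 in GRCm38. Krt8 (ENSMUSG00000049382) spans chr15:101996698-102004482 on the minus strand with 9 exons, and Krt18 (ENSMUSG00000023043) spans chr15:102028180-102032027 on the plus strand with 7 exons. They are thus transcribed away from each other, 23.7 kb apart, with 0 annotated genes lying wholly between them. Krt7 (ENSMUSG00000023039) spans chr15:101411043-101430313 on the plus strand with 9 exons in its Krt7-201 transcript, and Krt19 (ENSMUSG00000020911) spans chr11:100140810-100148665 on the minus strand with 6 exons in Krt19-201. The bases before the start of Krt8 and Krt18 are shown because these genes moved together in the values below, and capitals mark CACCC on either strand, a core of sites that Klf factors bind. Other forms of such sites are not marked. The sequences are from RefSeq on GRCm38.p6, written 5′ to 3′ on the strand of the gene and cut so that they end at the base before the GENCODE start.
Krt8, chr15:102004483-102004592, minus strand: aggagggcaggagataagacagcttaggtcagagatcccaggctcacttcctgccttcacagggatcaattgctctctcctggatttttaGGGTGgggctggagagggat
Krt18, chr15:102027966-102028179, plus strand: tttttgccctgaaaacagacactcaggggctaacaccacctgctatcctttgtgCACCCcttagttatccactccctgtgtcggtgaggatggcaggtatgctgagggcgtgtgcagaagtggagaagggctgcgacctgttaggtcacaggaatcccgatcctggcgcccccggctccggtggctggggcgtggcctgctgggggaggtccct

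Promoter windows of 300 bases, 250 before the RefSeq start to 50 after it, were available for 3 of the 4 genes (Krt8, Krt18 and Krt7). The GENCODE start lies upstream of the RefSeq start by 140 bases for Krt8, 36 for Krt18 and 1360 for Krt7. The window of Krt7 thus lies wholly inside the gene as GENCODE places it. CACCC, read on both strands, occurred 2 times in the window of Krt8, 2 times in that of Krt18 and 1 time in that of Krt7, and 57.5% of all 32851 windows held it. The AP-1 sequence TGANTCA, the E-box CACGTG and the octamer ATGCAAAT had 0 matches in the 3 windows, against 7.81%, 7.15% and 1.74% of all windows. The TATA box TATAAA had 2 matches, which overlap, in the window of Krt8 and 0 in the other windows, against 13.6% of all. Those matches begin 3 and 1 bases before the RefSeq start of Krt8, inside the gene as GENCODE places it. The GC box GGGCGG was found 4 times in the window of Krt7 and 0 times in the other windows, against 35.7% of all. These letters are a description of the windows.

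Krt8 was the most abundant of the 4 genes in every OSKM library. It measured FPKMs of 195.2 and 179.2 in OSKM-ESCs at day 18, 28.78 and 28.77 at day 25, and 41.3 and 42.1 at day 38. In 2iL-ESCs it measured 2.08 and 2.49 at day 18, 4.11 and 4.78 at day 25, and 2.71 and 2.95 at day 38. The lowest OSKM-ESC library thus stood above the highest 2iL-ESC library, and the gap was widest at day 18. The mean was 85.9 ± 78.8 in OSKM-ESCs and 3.19 ± 1.04 in 2iL-ESCs (SD, n = 6), a 27.0-fold difference that was 81.9-fold at day 18, 6.47-fold at day 25 and 14.7-fold at day 38. In iPSCs, Krt8 measured 339.1 in OSKM-iPSC clone 1 and 91.3 in clone 3, against 15.7 in 2iL-iPSC clone 3 and 9.08 in clone 6. MEF cells held 3.33 and 2.83, in the range of the 2iL-ESCs. Ordered by mean, Krt8 was highest in OSKM-iPSCs and OSKM-ESCs of day 18, whose ranges overlapped, and lowest in 2iL-ESCs of day 18, and MEF cells and 2iL-ESCs of day 38 also overlapped.

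Krt18, the type I partner of K8, followed Krt8 at a lower level. It measured 114.64 and 114.55 in OSKM-ESCs at day 18, 17.4 and 16.9 at day 25, and 18.8 and 16.8 at day 38. In 2iL-ESCs it measured 2.40 and 0.975, 1.97 and 3.15, and 2.50 and 1.82 on the same days. Its OSKM-ESC libraries also stood above all 2iL-ESC libraries. The means over days were 49.9 ± 50.2 and 2.14 ± 0.74 (SD, n = 6), a 23.3-fold difference. OSKM-iPSC clones 1 and 3 held 255.5 and 46.7, 2iL-iPSC clones 3 and 6 held 11.4 and 5.70, and MEF cells held 8.37 and 9.91. In MEF cells, Krt18 was thus the higher of the pair.

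Krt19, the other type I chain, had its highest mean in OSKM-ESCs of day 18, with 33.3 and 32.6, followed by MEF cells with 23.1 and 28.0. OSKM-ESCs held 4.37 and 2.94 at day 25 and 10.8 and 11.1 at day 38. In 2iL-ESCs, Krt19 was close to 0 at day 18 (0.161 and 0.112) and reached 2.07 and 1.80 at day 25 and 2.41 and 2.14 at day 38. OSKM-ESCs stood above 2iL-ESCs in all libraries, by 241.0-fold in means at day 18 but by 1.89-fold at day 25. OSKM-iPSC clone 1 held 35.4 and clone 3 held 14.3, a range that included both MEF libraries, and the 2iL-iPSC clones held 2.76 and 2.05.

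Krt7, the other type II chain, had the lowest mean of the 4 genes in each ESC and iPSC condition, whereas in MEF cells Krt8 was the lowest. It measured 2.79 and 2.57 in OSKM-ESCs at day 18, 1.06 and 0.737 at day 25, and 0.239 and 0.425 at day 38. In 2iL-ESCs it measured 0.0203 and 0.0391 at day 18, 1.199 and 0.795 at day 25, and 0.0859 and 0 at day 38. The media overlapped at day 25 and over all days, with means of 1.30 ± 1.10 and 0.357 ± 0.513 (SD, n = 6). In iPSCs the media stood apart, with 9.40 and 10.7 in OSKM-iPSC clones 1 and 3 and 0.578 and 0.381 in 2iL-iPSC clones 3 and 6. MEF cells held 5.46 and 4.41. Krt7 was the only one of the 4 genes that was not higher in clone 1 than in clone 3 of the OSKM-iPSCs, where Krt8 differed 3.72-fold, Krt18 5.47-fold and Krt19 2.47-fold.

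**Figure D1:**
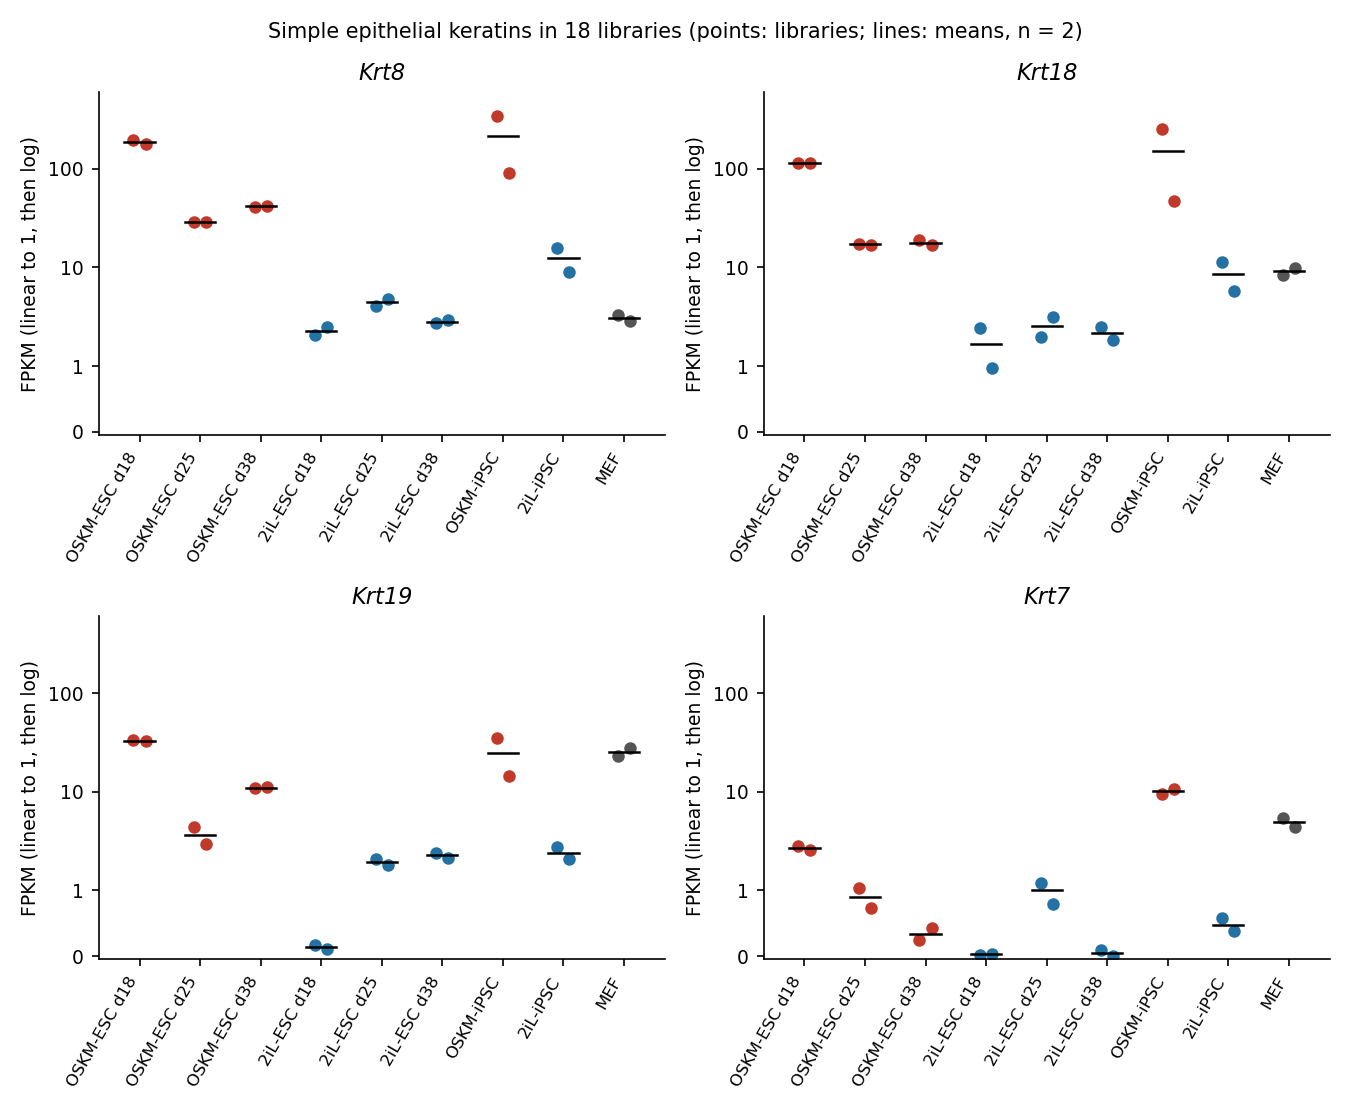
FPKM of Krt8, Krt18, Krt19 and Krt7 (1 panel each, axis linear up to 1 and logarithmic above) in the 9 conditions, with a point for each library and a line for the mean of 2. OSKM conditions (red) stand above 2iL conditions (blue) for Krt8, Krt18 and Krt19, Krt7 overlaps at day 25, and MEF cells (grey) hold more Krt19 and Krt7 than any 2iL condition.

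On the log2(FPKM + 1) scale, the difference of OSKM-ESCs minus 2iL-ESCs over all days was 3.93 for Krt8, 3.48 for Krt18, 2.47 for Krt19 and 0.71 for Krt7. Without day 18 these differences were 2.97, 2.48, 1.26 and 0.14, so a part of each difference, and most of that of Krt7, rested on the earliest day. The OSKM-iPSC minus 2iL-iPSC differences were 3.77 for Krt8, 3.599 for Krt18, 2.80 for Krt19 and 2.90 for Krt7. Krt18 and Krt19 had all OSKM-ESC libraries above all 2iL-ESC libraries, where 14.6% of all genes tested did, and Krt7 did not. Krt18, Krt19 and Krt7 had both OSKM-iPSC clones above both 2iL-iPSC clones, where 37.2% of all genes tested did. Krt8 is left out here, since this order in iPSCs and at day 38 was a condition of its ranking.

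The difference between media was then compared between days 18 and 25, whose libraries the ranking of Krt8 did not use. This test was added after the values had been seen. The log2 difference of OSKM minus 2iL was larger at day 18 than at day 25 by 3.39 for Krt8 (SE 0.15, adjusted p = 8.95e-05 by limma), 3.11 for Krt18 (SE 0.36, adjusted p = 0.0015), 4.25 for Krt19 (SE 0.22, adjusted p = 0.00011) and 1.91 for Krt7 (SE 0.21, adjusted p = 0.0013). All 4 genes passed in the same direction, where 17.1% of 13564 genes did.

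The days were then compared within each medium. The libraries of day 38 and of the iPSCs had entered the ranking that chose Krt8, so values of Krt8 that rest on them are given here and below with no p-value. The fits by day pooled the spread of all days, day 38 among them, so no change of Krt8 in these fits has a p-value. In OSKM-ESCs, Krt18, Krt19 and Krt7 changed across days in limma's F test (adjusted p of 5.2e-05, 0.00018 and 0.0022), where 38.6% of 13073 genes did. From day 18 to day 25, Krt8 fell by 2.66 on the log2 scale (SE 0.10), Krt18 fell by 2.67 (SE 0.10, adjusted p = 9.46e-05 by limma), Krt19 fell by 2.88 (SE 0.15, adjusted p = 0.00023) and Krt7 fell by 0.96 (SE 0.16, adjusted p = 0.0096), where 12.1% of all genes fell. In mean FPKM this was a 6.51-fold drop for Krt8, 6.69-fold for Krt18, 9.01-fold for Krt19 and 2.99-fold for Krt7. From day 25 to day 38, where 14% of all genes rose and 7.27% fell, Krt19 rose by 1.38 (SE 0.15, adjusted p = 0.0016 by limma), whereas Krt18 differed by 0.05 (adjusted p = 0.75) and Krt7 by -0.51 (adjusted p = 0.067). Krt8 differed by 0.52 (SE 0.10). The fall of Krt7 was lost without OSKM-ESC replicate 1 of day 18 (adjusted p = 0.059 by limma). Krt7 from day 25 to day 38 passed the test under 5 of the alternatives, among them a pseudocount of 0.1 (adjusted p = 0.046).

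In 2iL-ESCs, Krt19, Krt7 and, given without a p-value, Krt8 rose between days 18 and 25. Krt19 and Krt7 changed across days in limma's F test (adjusted p of 0.00068 and 0.0074) and Krt18 did not (adjusted p = 0.45), where 50.8% of 12726 genes changed. From day 18 to day 25, Krt19 rose by 1.37 (SE 0.12, adjusted p = 0.00046 by limma), Krt7 by 0.95 (SE 0.17, adjusted p = 0.0047) and Krt8 by 0.73 (SE 0.12), and Krt18 differed by 0.44 (SE 0.30, adjusted p = 0.26), where 33.4% of all genes rose. From day 25 to day 38, where 12.2% of all genes fell, Krt7 fell by 0.93 (adjusted p = 0.017 by limma), while Krt8 differed by -0.51 (SE 0.12), Krt18 by -0.16 and Krt19 by 0.16. The fall of Krt7 was lost without replicate 2 of day 25 or either replicate of day 38 (adjusted p from 0.060 to 0.090). The rise of Krt8 from day 18 to day 25 was not called in the single fit of all 9 conditions. Krt18 rose over these days with no filter on low values (adjusted p = 0.0083 by limma), and its result also depended on 2iL-ESC replicate 1 of day 18.

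**Figure D2:**
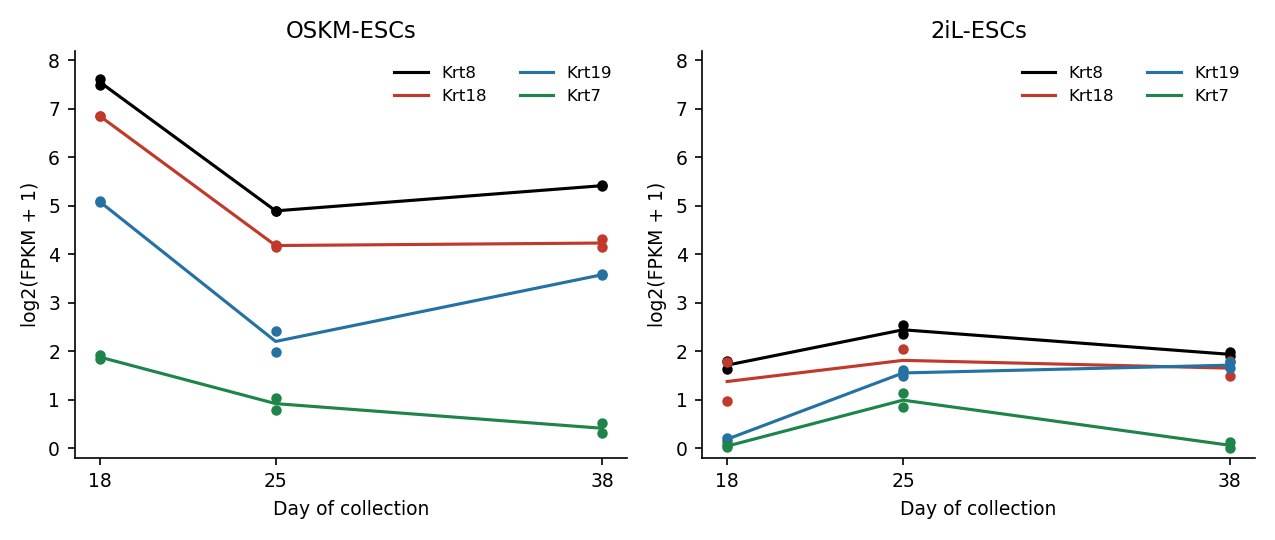
log2(FPKM + 1) of the 4 keratins by day of collection in OSKM-ESCs (left) and 2iL-ESCs (right), with a point for each of 2 libraries and lines through the means. Krt8 fell by 2.66, Krt18 fell by 2.67 and Krt19 fell by 2.88 from day 18 to day 25 in OSKM-ESCs, while Krt8, Krt19 and Krt7 rose over the same days in 2iL-ESCs.

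The iPSCs were next set against the MEF cells they were made from. Both iPSC comparisons share the MEF libraries, so their values are given side by side. On the log2 scale, Krt8 was 5.44 (SE 0.66) above MEF cells in OSKM-iPSCs and 1.67 (SE 0.26) above them in 2iL-iPSCs. OSKM-iPSCs had more Krt18 than MEF cells by 3.45 (SE 0.84, adjusted p = 0.026 by limma) and more Krt7 by 0.90 (SE 0.16, adjusted p = 0.011), where 34% of 14210 genes were higher. Krt19 differed by -0.16 (SE 0.45, adjusted p = 0.77), with 24.9 ± 14.9 in OSKM-iPSCs and 25.5 ± 3.5 in MEF cells (SD, n = 2). 2iL-iPSCs had less Krt19 by 2.96 (SE 0.16, adjusted p = 8.6e-05 by limma) and less Krt7 by 2.00 (SE 0.16, adjusted p = 0.00026), and Krt18 differed by -0.15 (SE 0.31, adjusted p = 0.68), where 40.6% of 14224 genes were higher and 37.4% lower. Without MEF replicate 1 or 2, the calls of Krt18 and Krt7 in OSKM-iPSCs were lost (adjusted p from 0.10 to 0.19 by limma).

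Within a medium, the iPSC clones were compared with the ESCs. OSKM-iPSCs had more Krt7 than OSKM-ESCs by 2.39 (SE 0.42, adjusted p = 0.026 by limma), where 1.27% of 13736 genes were higher. Krt18 differed by 1.70 (SE 0.92) and Krt19 by 0.94 (SE 0.80), neither past the threshold, and Krt8 differed by 1.51 (SE 0.82). Krt7 was no longer called with a pseudocount of 0.1 (adjusted p = 0.075 by limma), without either clone (adjusted p = 0.075 without clone 1 and 0.12 without clone 3) or without either replicate of day 25 (adjusted p of 0.054 and 0.063), while Krt18 and Krt19 were called in the single fit of 9 conditions (adjusted p of 0.017 and 0.013). 2iL-iPSCs had more Krt18 than 2iL-ESCs by 1.58 (SE 0.30, adjusted p = 0.025 by limma), where 1.62% of 13147 genes were higher. Krt8 differed by 1.67 (SE 0.27), Krt19 by 0.61 (SE 0.47) and Krt7 by 0.20 (SE 0.33). The call of Krt18 was lost without 2iL-iPSC clone 3 (adjusted p = 0.21 by limma) or without either replicate of day 38 (adjusted p of 0.054 and 0.060).

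The balance between the 4 genes also differed between cell types. Krt8 made up 54.5% to 59.8% of their summed FPKM in the 6 OSKM-ESC libraries, 53.0% and 56.0% in the OSKM-iPSC clones, and 51.5% and 52.7% in the 2iL-iPSC clones. In 2iL-ESCs the share ran from 35.2% to 68.8%, on sums of only 3.62 to 10.5 FPKM. In MEF cells Krt8 made up 6.28% and 8.27%, and Krt19 took 57.4% and 62.0%. The ratio of Krt8 to Krt18 lay between 1.56 and 2.50 in OSKM-ESCs and between 0.865 and 2.55 in 2iL-ESCs, with medians of 1.70 and 1.57, and was 0.286 and 0.398 in MEF cells. The ratio of type II to type I levels was 1.24 to 1.52 in OSKM-ESCs and 0.191 to 0.279 in MEF cells. OSKM-ESCs thus held more type II than type I RNA at each of 3 days over a range of summed levels from 49.3 to 345.9 FPKM. Both kinds of iPSC clone did so too, 2iL-ESC libraries lay on either side, and MEF cells held mostly type I RNA.

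**Figure D3:**
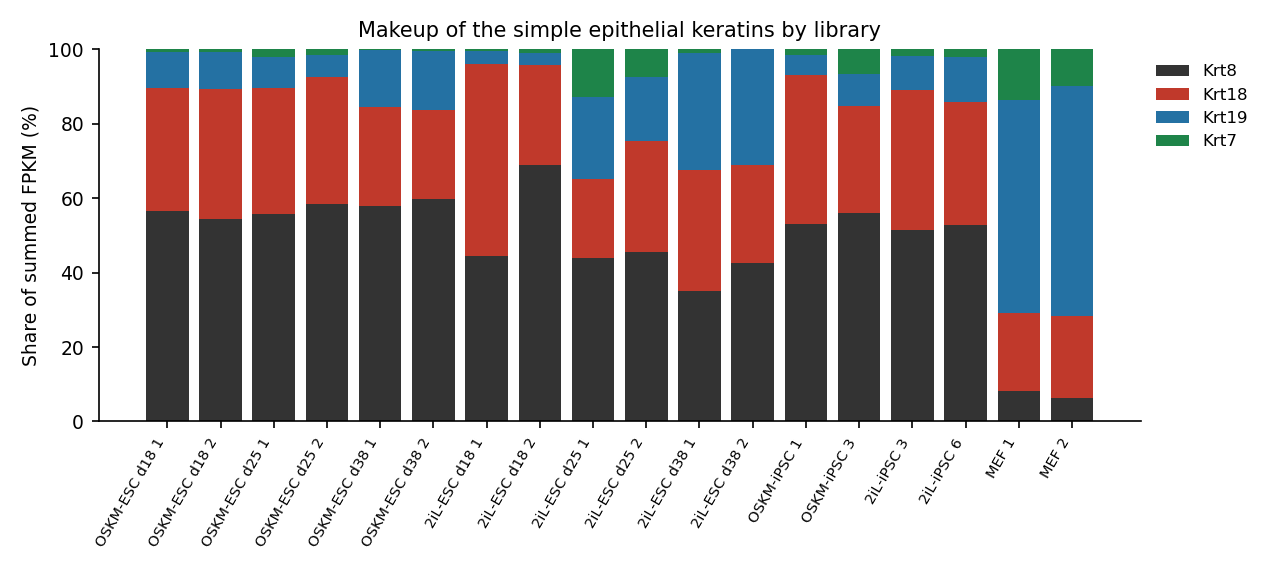
Share of the summed FPKM of Krt8, Krt18, Krt19 and Krt7 (percent, stacked to 100) in each of the 18 libraries. Krt8 (black) takes 51.5% or more in the OSKM and 2iL-iPSC libraries, and Krt19 (blue) takes 57.4% and 62.0% in the MEF libraries.

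Over the 16 libraries of ESCs and iPSCs, the gene whose log2(FPKM + 1) was most like that of Krt8 among 14620 genes was Krt18, with a Pearson r of 0.989. Adam8, a membrane metalloprotease, followed with 0.979, Lipg, the endothelial lipase, with 0.976, Abhd5, a co-activator of fat breakdown, with 0.972, and Cald1, the actin binding protein caldesmon, with 0.969. Krt19 held rank 32 (r = 0.948) and Krt7 rank 1211 (r = 0.780). These libraries fall into the 2 media and share their days, so any gene that differs between the media correlates with Krt8. Adding the 2 MEF libraries moved Krt18 to rank 3 (r = 0.952) and Krt19 to rank 874 (r = 0.676). Adam8, Lipg, Abhd5 and Cald1 were higher in MEF cells than in any ESC or iPSC mean, unlike Krt8. Cald1, for example, measured 641 in MEF cells, 28.7 in OSKM-ESCs and 3.19 in 2iL-ESCs.

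Krt79 and Krt78, the annotated keratins within 60 kb of Krt8 on the side away from Krt18, did not exceed an FPKM of 0.203 in any library, and Krt15 and Krt13 near Krt19 did not exceed 0.201 and 0.880. Krt14, also within 60 kb of Krt19, had a mean of 2.23 in OSKM-ESCs and 0.0325 in 2iL-ESCs and reached 13.3, and Krt80, within 60 kb of Krt7, had 0.209 and 0 and reached 2.21. Eif4b, a translation factor gene within 60 kb of Krt18, had a mean of 230.8 in OSKM-ESCs and 255.9 in 2iL-ESCs. The antisense RNA Gm671 overlaps Krt7 and the noncoding RNA Gm36026 overlaps Krt8, and they did not exceed 0.072 and 0.128. The pseudogene Krt8-ps is 98.6% identical to Krt8 over 941 bases and did not exceed 0.665, and Gm5200, 90.5% identical to Krt18 over 1267 bases, was listed at 0. As only uniquely mapped reads were kept, levels of Krt8 and Krt18 may be low by the reads these copies share.

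Of the other 50 keratins, 6 passed the filter of an FPKM over 1 in at least 1 ESC library. Of those, 2 were higher in OSKM-ESCs than in 2iL-ESCs by limma and 1 was lower, against 29.5% higher and 24.4% lower among 14016 genes. Krt14, a keratin of the basal layer of skin, was 2.23 ± 2.51 against 0.0325 ± 0.0407 (SD, n = 6; log2 difference 1.31, adjusted p = 0.0025 by limma). Krt20, a keratin of gut epithelium, was 1.19 ± 0.63 against 0.0073 ± 0.0179 (1.07, adjusted p = 4.2e-05). Krt42 was lower at 1.51 ± 0.57 against 5.58 ± 1.74 (-1.38, adjusted p = 1.9e-05). Krt17 (2.71 and 2.09), Krt10 (0.934 and 0.827) and Krt16 (0.873 and 0.154) did not pass the test. These means pool days that differed. Krt17 was higher in OSKM-ESCs at day 18 (5.08 against 1.76) but lower at day 38 (0.777 against 1.91). Krt14 in OSKM-ESCs was 5.46 at day 18, 0.728 at day 25 and 0.504 at day 38. In OSKM-ESCs these 6 means lay under those of Krt8, Krt18 and Krt19, whereas in 2iL-ESCs that of Krt42 lay above those of the 4 simple epithelial keratins.

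Of 12 genes of vimentin and the other intermediate filaments that were tested, 3 were higher and 3 lower in OSKM-ESCs, shares near the 29.5% and 24.4% of all genes, with a median log2 difference of -0.15 against 0.03 over all genes. Vim, the filament protein of mesenchymal cells, was 127 ± 39 in OSKM-ESCs and 177 ± 39 in 2iL-ESCs (log2 difference -0.51, adjusted p = 6.6e-05 by limma), against 1768 in MEF cells. Lmnb2, a nuclear lamin, was lower by 0.39 on the same scale, at 27.1 against 35.7 (adjusted p = 0.0003 by limma). Nefl and Ina, neuronal filament proteins, were higher at 41.9 against 8.66 and 23.1 against 11.4. Lmnb1 was 182 and 179 and did not pass the test. The libraries of the media overlapped for Vim, and its call was lost in the single fit of 9 conditions (adjusted p = 0.21 by limma), while that of Ina was lost under 6 of 21 alternatives, among them no filter (adjusted p = 0.19).

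The list of keratin linkers and desmosome genes also holds Krtcap2, Krtcap3, Tchp and Dnajb6. Of its 17 genes tested, 11 were higher in OSKM-ESCs, Krtcap2 and Krtcap3 among them, and 1 was lower. Among all genes, 29.5% were higher and 24.4% lower. The median difference was 0.48 against 0.03 over all genes. Dsg2, a desmosomal cadherin, was 16.9 ± 5.7 against 9.02 ± 0.86 (log2 difference 0.76, adjusted p = 0.0031 by limma), Krtcap2, which belongs to the enzyme complex that attaches sugars to new proteins, was 48.7 against 40.6 (0.26, adjusted p = 0.0024), and Macf1, a cytoskeletal linker, was 25.8 against 22.9 (0.17, adjusted p = 0.032). Dnajb6, a chaperone that binds K18, was the one lower gene, at 91.0 ± 11.1 against 144 ± 23 (-0.65, adjusted p = 1.2e-05 by limma), and this count became 3 genes under median-ratio scaling, quantile normalization and the single fit. The call of Macf1 was lost under 9 of 21 alternatives, and that of Dsg2 without day 18 (adjusted p = 0.061 by limma). Jup, the junction protein plakoglobin, was 52.1 and 41.8 and did not pass (adjusted p = 0.052 by limma).

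Epithelial junction genes were higher in 15 of 26 tested and lower in 2, beside the same 29.5% and 24.4% of all genes, with a median difference of 0.60. Cldn6, a claudin of tight junctions, was 74.5 ± 36.0 against 6.03 ± 1.31 (log2 difference 3.32, SE 0.26, adjusted p = 7.3e-07 by limma), Lsr, a protein of tricellular junctions, was 46.1 ± 7.4 against 12.8 ± 3.3 (1.79), and Epcam, an epithelial adhesion protein, was 119 ± 24 against 47.3 ± 5.1 (1.29, SE 0.08). Every OSKM-ESC library exceeded every 2iL-ESC library for these genes. Spint1, an inhibitor of epithelial serine proteases, was lower at 22.8 ± 3.2 against 36.3 ± 8.1 (-0.64, adjusted p = 0.0003 by limma), and without day 18 the number of lower genes was 5. Cdh1, the epithelial cadherin that ESCs also express, was 135 ± 33 and 147 ± 40 and did not pass (adjusted p = 0.50 by limma), although it was lower without day 18 (-0.37, adjusted p = 0.0080).

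AP-1 and ETS factors, families to which known regulators of Krt8 and Krt18 belong, were higher in 9 of 19 tested and lower in 2, beside 29.5% and 24.4% of all genes, with a median of 0.50. The families differed. The higher genes were Fos, Fosb, Fosl2, Jun, Junb and Atf3 of AP-1 but only Ets1, Ets2 and Etv1 of ETS, and both lower genes were ETS factors. Elf3, an ETS factor counted with the junction genes, was also lower, at 11.1 against 40.7 (-1.76, adjusted p = 4.7e-05 by limma). Fos was 24.8 ± 13.2 against 2.81 ± 2.78 (log2 difference 2.91, SE 0.11, adjusted p = 2.2e-09 by limma) and Junb was 20.0 ± 10.6 against 5.36 ± 0.74 (1.59, adjusted p = 3.2e-05). Gabpa was lower at 21.6 against 34.6 (-0.65, adjusted p = 0.0002 by limma) and Etv5 at 80.3 against 102 (-0.37, adjusted p = 0.0013). Jund, at 64.9 and 95.1, did not pass (adjusted p = 0.052 by limma) but was lower under 5 of 21 alternatives. In iPSCs, 2 of 18 genes of this list were higher and 0 lower in OSKM cells, where 5% of all genes were higher and 2.96% lower. They were Jund, with 104 against 48.7 (log2 difference 1.09, adjusted p = 0.041 by limma), and Jun, with 7.80 against 1.35 (1.90, adjusted p = 0.018), which was named after its values were seen. Junb measured 13.0 against 3.32 and Fos 1.18 against 0.795, and neither passed the test.

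**Figure D4:**
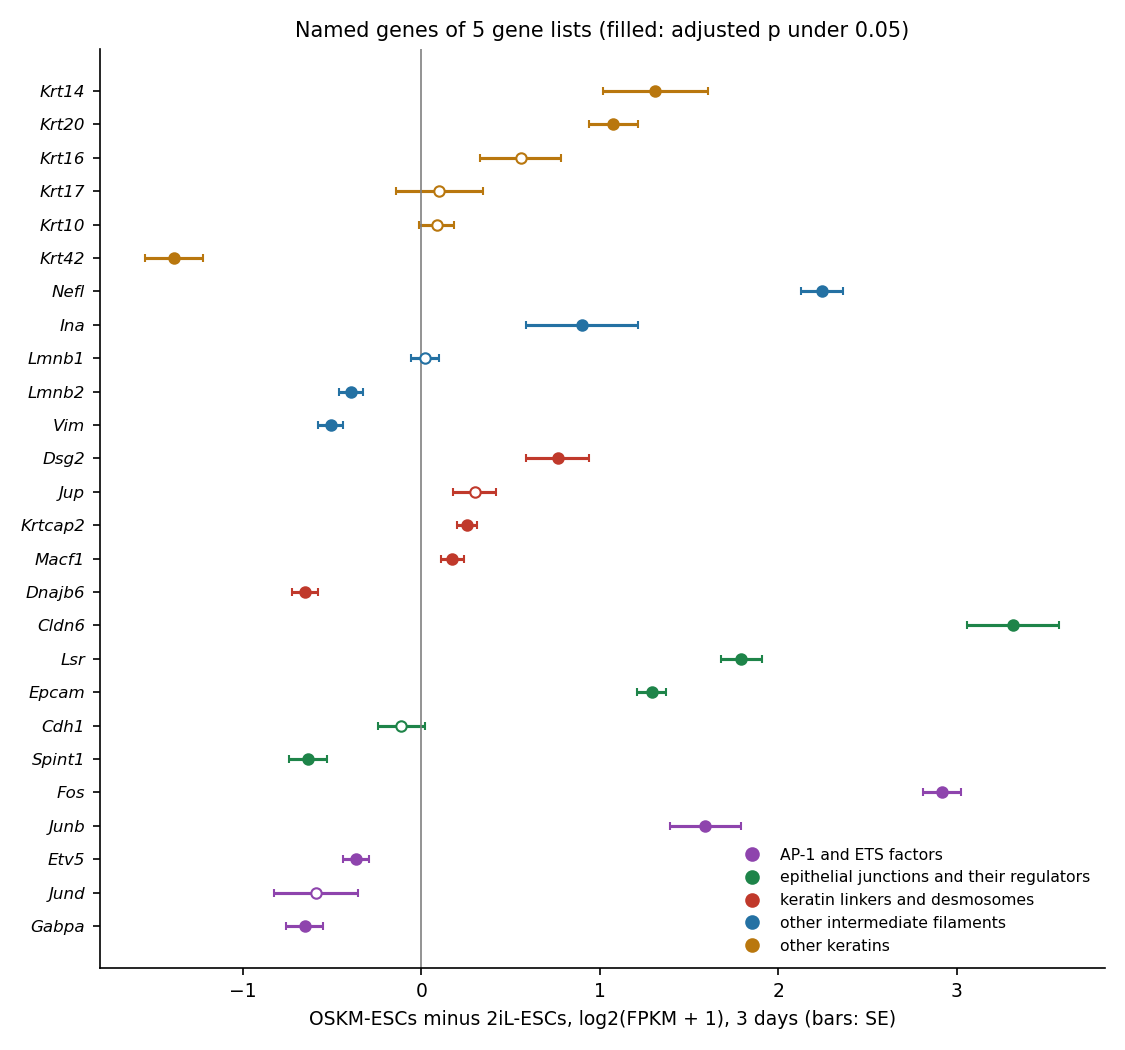
Log2 difference in FPKM + 1 of OSKM-ESCs minus 2iL-ESCs over 3 days for the named genes of 5 lists (colours), with bars for the SE and filled points for an adjusted p under 0.05 by limma. Cldn6, Fos and Nefl have the highest differences, at 3.32, 2.91 and 2.24, and Krt42 the lowest, at -1.38.

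Between OSKM-iPSCs and 2iL-iPSCs, junction genes were higher in 12 of 26 tested and lower in 1, where 5% of 13653 genes were higher and 2.96% lower. Epcam was 141 against 48.0 (log2 difference 1.54, adjusted p = 0.012 by limma), Cldn6 80.3 against 13.4 (2.39, adjusted p = 0.032), and Lsr 36.8 against 10.5 (1.72, adjusted p = 0.017). Of the linkers, 0 of 17 were higher and 1 lower, and of the 6 other keratins 0 passed, although their medians were 0.58 and 1.52 against 0.09 over all genes. In the single fit of 9 conditions the junction genes numbered 21 higher, the linkers 9 and the other keratins 2, and without either 2iL-iPSC clone 0 genes of the 5 lists were higher. OSKM-iPSC clone 1, which had the highest Krt8, also had the highest Krt14 (13.3), Krt17 (29.6) and Krt20 (19.6), against 0.182, 1.195 and 0.646 in clone 3.

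The lists were also counted between days 18 and 25 within each medium. In OSKM-ESCs, 11 of 26 junction genes and 5 of 17 linkers fell, and 3 and 0 rose, where 12.1% of all genes fell and 11.5% rose. In 2iL-ESCs, 18 of 25 junction genes and 11 of 15 linkers rose, and 1 of each fell, where 33.4% rose and 19% fell. The median differences of the junction genes were -0.24 and 0.52, against -0.04 and 0.12 over all genes.

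Markers of other cells were measured beside the keratins. The 16 fibroblast markers summed to 31.9 to 50.1 FPKM in OSKM-ESCs, 6.61 to 8.67 in 2iL-ESCs and 1881 and 2167 in MEF cells, and 11, 3 and 16 of them had a mean over 1. In OSKM-iPSCs the sum was 6.30% of the MEF mean in clone 1 and 0.434% in clone 3. The same percentage of the MEF level of Krt8 is 0.194 FPKM in clone 1 and at most 0.0762 in OSKM-ESCs, where Krt8 measured 339.1 and at least 28.8. For Krt18 it is at most 0.226 FPKM in OSKM-ESCs, where the lowest library held 16.8. For Krt19 it is at most 0.632 FPKM in OSKM-ESCs, where the lowest library held 2.94. For Krt7 it is 0.0829 and 0.0798 FPKM in OSKM-ESCs at day 38, a larger part of the 0.239 and 0.425 measured there. Clone 3 of the OSKM-iPSCs, with fibroblast markers near the 0.327% to 0.428% of 2iL-ESCs, held 91.3 of Krt8. In these values the MEF libraries stood in for the mitomycin-C treated feeders, whose own levels were not measured. The part of fibroblasts or feeders in the keratin levels was not tested.

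Of 10 markers of stratified epithelium, 3 had a mean over 1 in OSKM-ESCs and 2 in 2iL-ESCs, and their sum was 211.6 and 249.9 FPKM in OSKM-ESCs at day 18, 58.8 to 69.8 at the later days and 28.4 to 34.8 in 2iL-ESCs. Most of it was Sfn, which encodes stratifin, with 174.6 and 211.1 at day 18, 48.8 and 54.9 at day 25 and 44.8 and 45.9 at day 38, and Perp, a desmosome protein, with 30.3 and 31.7 at day 18. The defining Trp63 and Krt5 stayed under a mean of 0.5 in all conditions, and Ivl was at 0 in each ESC and iPSC library. Of 13 trophoblast markers, 5 had a mean over 1 in OSKM-ESCs and 4 in 2iL-ESCs, and in OSKM-iPSCs 9 did. Their sum was higher in OSKM-ESCs than in 2iL-ESCs at day 18 (29.8 and 36.0 against 18.8 and 18.9), lower at day 25 (17.3 and 18.8 against 29.7 and 31.6) and higher at day 38 (48.2 and 51.9 against 20.3 and 21.4), and it was 41.1 and 66.2 in OSKM-iPSCs against 25.6 and 26.9 in 2iL-iPSCs. Among its members, Ascl2 had means of 4.01 in OSKM-ESCs against 1.21 in 2iL-ESCs at day 18, but 0.773 against 1.37 at day 38. Cdx2 had 25.4 against 0.245 at day 38, but 0.889 against 1.203 at day 18. The largest member of the sum in OSKM-ESCs at day 38 was Cdx2, followed by Tead4 with 11.9 against 11.4 in 2iL-ESCs. The placental genes Tpbpa and Prl3d1 were at 0 in all ESC libraries, and Elf5 did not exceed a mean of 0.14 in them. Of 14 markers of extraembryonic endoderm, 5 had a mean over 1 in OSKM-ESCs and 3 in 2iL-ESCs, with sums of 85.5 to 134.3 and 69.8 to 83.0 that were mostly Sparc, and Afp was at 0 in OSKM-ESCs. The part of these cells in the keratin levels was not tested.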

How the data were processed

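Poly-A RNA of 18 libraries was sequenced by the authors, who aligned reads to GRCm38 with STAR 2.7.1a, kept uniquely mapped reads and ran StringTie 2.0, per the labels and the study's methods. The deposited FPKM values were used for levels and tests. The deposited coverage, a signal without normalization, is the mean read coverage per base. The deposited TPM values, rescaled by the authors' StringTie run, served as an alternative and were recomputed from FPKM for 2 libraries. Of 55471 genes, 2 with an infinite value (St13 and U2surp) were left out, and values of 11 repeated identifiers were summed. The study's DEG tool, Cuffdiff 2.2.1, needs aligned reads and was not used here. Replicates shared 0 identical values over the genes compared.

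Values were put on the log2(FPKM + 1) scale, which understates changes of low genes, and genes were kept where 1 or more of the libraries compared had an FPKM over 1. limma 3.58.1 in R 4.3.3 was run with lmFit and a trended eBayes on the compared groups alone, and day was a covariate when days were combined. Benjamini-Hochberg adjustment covered every gene of the fit, with a threshold of 0.05. Fits were tested on simulated data with a log2 change of 2 in 200 genes, which recovered 94.5% of them for days in OSKM-ESCs, 92.5% for days in 2iL-ESCs, 57.5% for OSKM-iPSCs and 76.5% for 2iL-iPSCs against MEF cells, and 48.5% for the iPSC media. Alternatives were a pseudocount of 0.1, no filter, median-ratio scaling, quantile normalization, TPM, eBayes without trend, a single fit of all 9 conditions, a replicate block, the study's cutoff for lists (unadjusted p under 0.05 and over 2-fold) and leaving out each replicate.

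Positions came from GENCODE M21, whose coordinates were those of 99.4% of genes found in it, and near copies from blastn 2.17.0. The members and gene lists were chosen with earlier results of these data known, and the test of day 18 against day 25, the list counts by day and the values without day 18 were added after the values were seen. Named genes were the members, other keratins over an FPKM of 1, up to 4 called genes with the highest mean and the top uncalled gene of each list, the 5 genes most like Krt8, and markers. Genes named beyond these, among them the neighbours of the keratins and further genes of the closing observations, were chosen for their position or after their values were seen. Sequencing batches and dates are not given in the sources used here.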

Additional observations from a re-analysis of the deposited data

Results flagged for a closer look

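The difference between OSKM-ESCs and 2iL-ESCs was not the same at days 18 and 25 for any of the 4 keratins, by a test of the difference itself that was added after the values were seen. On the log2(FPKM + 1) scale the OSKM minus 2iL difference was larger at day 18 by 3.39 for Krt8 (5.84 against 2.45), 3.11 for Krt18 (5.48 against 2.37), 4.25 for Krt19 (4.90 against 0.65) and 1.91 for Krt7 (1.84 against -0.07).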

How the results depend on the processing

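The counts that follow include Krt8, whose choice used the libraries of day 38 and the iPSCs. They are given only for how they move with the processing, not as a result about the keratins. Across days, 4 keratins were called in OSKM-ESCs, where 38.6% of 13073 genes were, and without Krt8 these were Krt18, Krt19 and Krt7. In 2iL-ESCs 3 were called, where 50.8% of 12726 genes were, and without Krt8 these were Krt19 and Krt7. These counts and that of 2iL-iPSCs against MEF cells stayed within 1.5 times under every alternative run. In OSKM-iPSCs against OSKM-ESCs the count of 1 became 0 with a pseudocount of 0.1 and 4 in the single fit of 9 conditions, and ranged from 0 to 1 when single replicates were left out. It ranged from 0 to 3 in OSKM-iPSCs against MEF cells and from 0 to 2 in 2iL-iPSCs against 2iL-ESCs. Small differences turned direction. Krt18 from day 25 to day 38 in OSKM-ESCs was -0.042 under median-ratio scaling, -0.049 under quantile normalization and -0.026 to 0.13 with replicates left out. Leaving out replicates gave -0.40 to 0.081 for Krt18 from day 25 to day 38 in 2iL-ESCs, -0.79 to 0.46 for Krt19 in OSKM-iPSCs against MEF cells and -0.59 to 0.30 for Krt18 in 2iL-iPSCs against MEF cells. In ESCs, Lmnb1 was -0.028 under median-ratio scaling and -0.012 to 0.077 with replicates left out, and Krt17 was -0.42 without day 18 and -0.059 to 0.24 with replicates left out. The causes were not tested, and an arm left with 1 library was assumed to vary like the other groups. Median-ratio scaling moved the median of all genes by -0.16 in OSKM-iPSCs against MEF cells, and no other scaling or comparison moved it further.

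OSKM-ESC minus 2iL-ESC differences of Krt8, Krt18, Krt19 and Krt7 were 4.27, 3.95, 3.40 and 1.97 with a pseudocount of 0.1, 4.17, 3.79, 2.93 and 1.12 with TPM, and 2.97, 2.48, 1.26 and 0.14 without day 18. Leaving out replicates gave 3.66 to 4.13, 3.13 to 3.68, 2.16 to 2.76 and 0.55 to 0.84. In iPSCs, Krt7 was 4.15 with a pseudocount of 0.1 and 3.55 with TPM (range 2.80 to 3.00 with replicates left out).

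Over the 5 lists in ESCs, 40 genes were higher and 9 lower. The lower genes numbered 16 without day 18, 3 at the study's cutoff and 9 to 13 with replicates left out. In iPSCs, 15 were higher and 2 lower. Without the filter the counts were 34 and 5, in the single fit 48 and 10, and at the study's cutoff 26 were higher. The lower genes were 4 under median-ratio scaling, 0 under quantile normalization, 1 with TPM and 0 without trend. Leaving out replicates gave 0 to 33 higher and 0 to 2 lower.

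Same-numbered libraries share only a number. The correlations of their deviations across genes were 0.13, 0.09 and 0.01 at days 18, 25 and 38. With the replicate block, 4 and 3 keratins were called across days, again with Krt8 included. In ESCs, 36 list genes were higher and 9 lower with this block. Levels of Krt7 under an FPKM of 1 rest on few reads, and 2 libraries a condition limit each test.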

Other observations

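Cdx2, a transcription factor of the trophectoderm and hindgut, measured 26.3 and 24.5 FPKM in OSKM-ESCs at day 38. It measured at most 0.929 in OSKM-ESCs at days 18 and 25, at most 1.31 in 2iL-ESCs and at most 0.853 in the iPSC clones. Foxa2 and Sox17, endoderm factors, were also highest in those libraries, with 2.89 and 3.31 for Foxa2 and 1.19 and 2.35 for Sox17. These genes were picked from the marker lists after their values were seen.

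The OSKM-iPSC clones differed from each other in some epithelial genes beside the keratins, which were picked after their values were seen. Clone 1 held 232.8 FPKM of Sfn, 48.3 of Perp and 8.27 of Dsc2, a desmosomal cadherin, against 41.5, 15.95 and 2.17 in clone 3. Clone 3 in turn held more of the placental genes Plac1 (13.1 against 1.71) and Ascl2 (25.0 against 5.44). Krt7 was 9.40 in clone 1 and 10.7 in clone 3. Junction genes moved less or more with the replicates. With single replicates left out, the OSKM-iPSC minus 2iL-iPSC difference ran from 1.40 to 1.67 for Epcam, 1.52 to 1.93 for Lsr and 1.78 to 2.99 for Cldn6. With 1 library per clone, no test was made.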
